A study of Homo sapiens with 2 samples.

Results

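Serum response factor (SRF) and 9 of its best known target genes were followed across both arrays of the series. They were the actins ACTB, ACTG1 and ACTA2, the contractile genes TAGLN, CNN1, MYL9 and TPM1, and the adhesion and crosslinking genes VCL and FLNA. Every probe that the deposited annotation assigned to 1 of these 10 gene symbols was taken, which gave 16 probes, and the whole array carried 34757 gene symbols. The rule itself uses gene symbols and no measured value, but the members were chosen with earlier results of these data known. ACTB is also the gene against which the study normalized its RT-qPCR.

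RNA came from A375, an established human melanoma cell line. Cells of 1 culture were transfected with si-THOC2, a small interfering RNA against THOC2, a subunit of the THO complex that couples transcription to mRNA export, and cells of 1 culture were transfected with the control siRNA NC. Both cultures were harvested at 48 h and hybridized to 1 Agilent SurePrint G3 array each, which asks how gene expression differs when THOC2 is depleted. Neither condition was replicated. The spread between cultures is therefore unknown, and differences below are those of 1 array from another, with no test. The labels give DMEM with foetal bovine serum as the growth medium of both samples, and the methods give RPMI. The methods list 4 THOC2 siRNAs without naming the one used for the arrays. The source field of each sample contradicts its title and description as to the siRNA, and groups were taken from the titles and descriptions.

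Both arrays lay on 1 slide and were read in 1 scan, and 42.3% of 58199 probes on the NC array and 39.4% on the si-THOC2 array were called well above background by the scanner software. A log2 fold change here is the log2 processed signal of si-THOC2 minus that of NC, after each array's 75th percentile was subtracted. That percentile was 6.62 for NC and 6.31 for si-THOC2, so a probe with the same signal on both arrays has a log2 fold change of 0.31. Both THOC2 probes were lower with si-THOC2, from 136 to 40.9 in signal and from 67.3 to 35.1, with a mean log2 fold change of -1.03. Of the melanocyte lineage markers, SOX10 had signals of 6196 with NC and 5196 with si-THOC2 and MITF was well above background on both arrays, while the pigment genes PMEL, TYR and TYRP1 were not well above background on either. The arrays measure RNA of whole cultures, so fewer cells of a kind and less RNA per cell cannot be told apart.

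SRF binds the CArG box, a sequence of a pair of C, 6 bases of A or T and a pair of G that reads as a CArG box on both strands. Its partners decide which targets respond. The myocardin-related factors MRTFA and MRTFB bind monomeric actin, and when actin is drawn into filaments they are released, enter the nucleus and switch on actin and contractile genes with SRF. The ternary complex factors of the ELK family join SRF at early response genes such as FOS and EGR1 and answer to ERK, the kinase that mutant BRAF keeps active in many melanomas. The products of the contractile targets take part in cell motility and adhesion, and neither these nor invasion were measured by the arrays.

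The CArG boxes of the members are shown because they are the element that defines an SRF target. Sequences of 250 bases before to 50 bases after the start sites were taken from RefSeq (GRCh38.p14) and held 9 promoters of 7 members, with no entry for ACTB, TAGLN or MYL9. A box was found in 3 of these 9 promoters, 1 each of SRF, ACTG1 and FLNA, against 454 of all 35116 promoters (1.29%). Counted by gene, 3 of 7 members (42.9%) had a box in this window, against 438 of 27305 genes (1.60%) and 0 of 11 commonly used reference genes. Of the other cytoskeletal SRF targets listed below 10 of 29 genes (34.5%) had a box, and of the early response SRF targets 2 of 8. No box was found in these windows for ACTA2, CNN1, TPM1 or VCL, which says only that these letters are not there. Of the 2 SRF promoters, 1 held 2 boxes, 30 and 10 bases before the start site, and the other held none. The box of ACTG1 and that of FLNA each lay 94 bases before the start site. In the stretches below, given 5′ to 3′ on the strand of the gene, capitals mark the CArG boxes.
SRF, chr6:43171209-43171268, plus strand: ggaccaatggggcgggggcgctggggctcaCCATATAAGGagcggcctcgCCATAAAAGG
ACTG1, chr17:81512854-81512923, minus strand: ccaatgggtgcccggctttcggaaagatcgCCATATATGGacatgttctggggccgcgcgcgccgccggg
FLNA, chrX:154374689-154374758, minus strand: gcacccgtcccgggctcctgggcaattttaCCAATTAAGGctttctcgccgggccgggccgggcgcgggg

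Each member was read by 1 to 3 probes of 60 bases, placed on hg19 by the deposited annotation. The probes of ACTA2, MYL9 and TAGLN are shown because these genes were among those with lower values below, and the first 2 TPM1 probes because they are not separate readings of the gene. Those TPM1 probes share 26 bases, marked in capitals, at the 3′ end of the first and the 5′ end of the second. The intervals given for the first TAGLN probe and the first TPM1 probe are longer than the probe, so each crosses a junction between exons.
ACTA2, chr10:90697899-90697958, minus strand: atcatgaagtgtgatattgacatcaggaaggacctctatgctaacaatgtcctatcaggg
MYL9, chr20:35177541-35177600, plus strand: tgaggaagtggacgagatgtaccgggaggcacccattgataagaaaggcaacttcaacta
TAGLN probe 1, chr11:117074574-117074963, plus strand: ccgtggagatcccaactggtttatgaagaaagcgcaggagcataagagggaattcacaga
TPM1 probe 1, chr15:63353441-63354441, plus strand: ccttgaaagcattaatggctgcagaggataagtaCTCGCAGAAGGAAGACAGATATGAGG
TPM1 probe 2, chr15:63354416-63354475, plus strand: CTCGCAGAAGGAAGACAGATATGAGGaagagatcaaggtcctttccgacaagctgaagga

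Across the 10 genes, the contractile members and ACTA2 and VCL were lower with si-THOC2, ACTG1 differed little, and ACTB, FLNA and SRF were higher, though FLNA and SRF fell below 0 when the arrays were scaled on ACTB. The median log2 fold change of the members was -0.24, with 7 genes below 0 and 3 above, and that of all 17514 compared genes was 0.02, with 8164 below 0 and 9350 above. The members' median was -0.15 when only probes well above background on both arrays were used, and -0.13 when each gene was read by its brightest probe. Values ran from -0.63 for CNN1 to 0.34 for ACTB. No member reached 2-fold in either direction. The share of all genes past that fold was 3.34% lower and 2.96% higher, so a count of 0 of 10 is close to these shares. At 1.5-fold, CNN1 alone was lower and no member was higher, where 7.19% of all genes were lower and 6.03% higher. After normexp background correction, whose offset of 50 draws the folds of dim probes toward 0, CNN1 had -0.41, and that call was lost.

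Of the 16 member probes, 15 were well above background on at least 1 array and were compared, and 14 were so on both. By probe, 0 of 15 reached 2-fold, beside 3.33% of 25345 compared probes lower and 2.93% higher. The probe of CNN1 and the first probe of TAGLN were lower by 1.5-fold or more, which is 2 of 15, beside 7.69% of all compared probes. No member probe was higher by 1.5-fold, beside 6.14%.

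**Figure D1:**
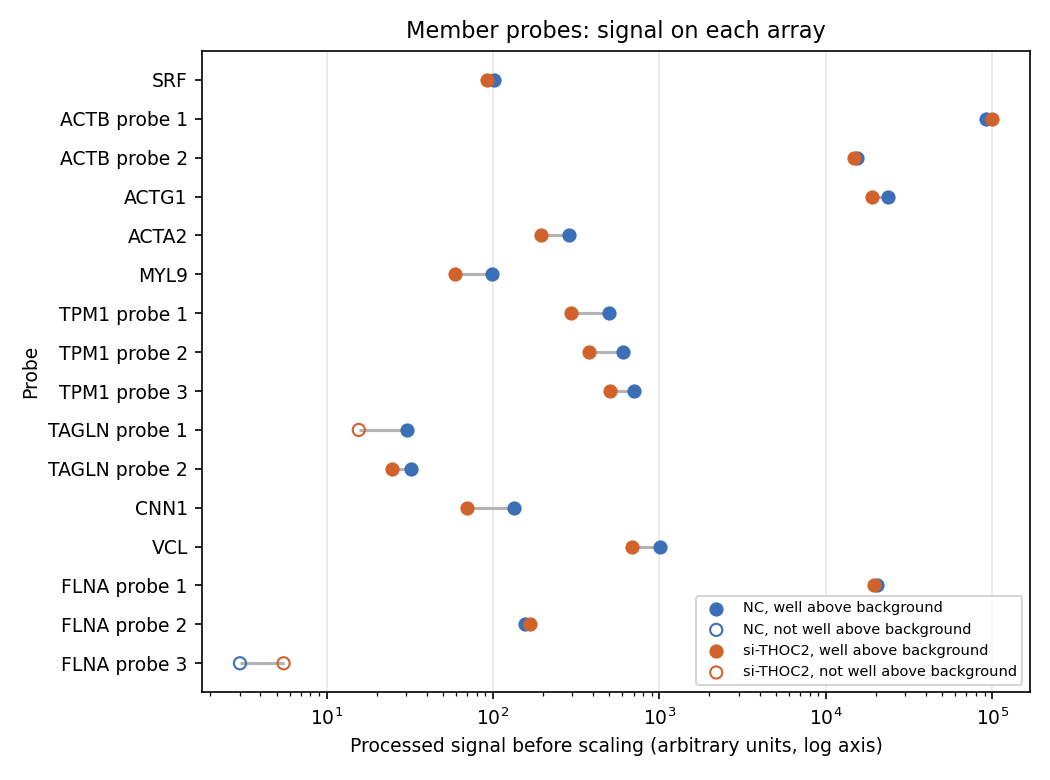
Processed signal of each member probe (log scale) on the NC array and on the si-THOC2 array, 1 point per array, joined by a line, with open points for signals not well above background. Signals are before scaling, and the si-THOC2 array was dimmer in general, with a 75th percentile of 6.31 against 6.62 for NC. The first ACTB probe, the second FLNA probe and the last FLNA probe, not well above background, lay higher on the si-THOC2 array. Every other member probe lay lower, and heights are not to be compared between probes.

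SRF itself, the factor of the set, was read by 1 probe at chr6:43148285-43148344. It gave 102 with NC and 92.1 with si-THOC2. After scaling this was a log2 fold change of 0.17, or 1.12-fold higher. The technical SD of this value was 0.13. That SD is the median over the 25 probes of nearest signal that were spotted repeatedly on both arrays, and it covers the spots and not the cultures. Among the 1001 compared probes of nearest signal 26.9% were higher than SRF, so the value lay well within their spread.

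ACTB, the gene of beta-actin that builds the cytoskeleton of non-muscle cells, had the highest value of the members with this scaling, level with FLNA within the technical error. With quantile normalization ACTB had 0.21 and FLNA 0.28, and with the lowess curve subtracted 0.22 and 0.28, so that order depends on the scaling. Its first probe, at chr7:5566787-5566846, gave 92093 with NC and 99917 with si-THOC2, for a log2 fold change of 0.43 with a technical SD of 0.04. Its second probe, at chr7:5567181-5567240, gave 15428 and 14775, a log2 fold change of 0.25 with a technical SD of 0.04. The second was thus dimmer on the si-THOC2 array and above 0 only after scaling. The mean of both probes was 0.34 (technical SD 0.03), or 1.26-fold higher. Of probes of like signal, 3.40% were higher than the first and 13.1% higher than the second. Bright probes in general lay slightly above 0 on these arrays, with a median of 0.11 around the first ACTB probe and 0.09 around the second. The median of all compared probes in the same block of spots on the array was 0.11 for the first probe and -0.07 for the second, and the part of array position was not tested.

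ACTG1 encodes gamma-actin, the other cytoskeletal actin. Its probe at chr17:79477566-79477625 gave 23682 with NC and 18962 with si-THOC2. After scaling the log2 fold change was -0.01, less than its technical SD of 0.04 and below the median of 0.09 of probes of like signal. The 2 cytoskeletal actin genes therefore differed from each other on these arrays by more than the technical SD of either.

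ACTA2, the smooth muscle alpha-actin that marks contractile cells, read 287 on the NC array and 194 on the si-THOC2 array. The log2 fold change was -0.25 with a technical SD of 0.09, or 1.19-fold lower, and 14.5% of probes of like signal were lower still. ACTA2 thus lay on the opposite side of 0 from ACTB. Actin genes share much of their coding sequence and have many pseudogenes, and how far each probe reads the others was not tested.

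CNN1 encodes calponin, an actin-binding protein that holds back actomyosin contraction in smooth muscle. Its probe at chr19:11661005-11661064 gave 134 with NC and 70.2 with si-THOC2. The log2 fold change was -0.63 with a technical SD of 0.13, or 1.54-fold lower, the lowest value of any member gene. Among probes of like signal 2.90% were lower than CNN1 and 3.60% were lower by 1.5-fold or more.

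TAGLN encodes transgelin, an actin-bundling protein and a classical SRF target of smooth muscle and fibroblasts, and its 2 probes disagreed. The first, printed above, gave 30.5 with NC and 15.6 with si-THOC2, where it was not well above background. Set against 15.9, the dimmest signal that the software called well above background there, it was at least 1.55-fold lower. The second, at chr11:117075155-117075214, gave 32.3 and 24.8, a log2 fold change of -0.07 with a technical SD of 0.15. Both signals were near the limit of detection, and the mean of -0.36 (technical SD 0.13) rests on the first probe, since the second alone gave a value within its error. Of probes of like signal, 13.7% were lower by 1.5-fold at the first probe, so such a value was common at that brightness. Few repeated probes were this dim, so the technical SDs of TAGLN are rough and may be too small.

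MYL9 encodes a regulatory light chain of myosin whose phosphorylation starts contraction. Its probe, printed above, gave 99.2 with NC and 59.1 with si-THOC2. The log2 fold change was -0.44 with a technical SD of 0.13, or 1.35-fold lower, and 9.19% of probes of like signal were lower.

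TPM1 encodes tropomyosin, which lies along actin filaments and stabilizes them, and all 3 of its probes were lower. The first gave 498 with NC and 293 with si-THOC2, for a log2 fold change of -0.45 (technical SD 0.08). The second, which shares bases with it, gave 608.3 and 375.2, a log2 fold change of -0.39 (technical SD 0.07). Its last probe lay apart at chr15:63363361-63363420 and gave 708 and 503, a log2 fold change of -0.18 (technical SD 0.07). TPM1 is spliced into many isoforms, and the annotation ties each of the 3 probes to a different transcript. The mean was -0.34 (technical SD 0.04), or 1.27-fold lower. Of probes of like signal, 2.80%, 4.50% and 14.2% were lower than these probes, in the order given. The first and the last differed by more than their technical SDs.

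VCL encodes vinculin, which links actin to integrin and cadherin adhesions. Its probe at chr10:75879227-75879286 gave 1003 with NC and 688 with si-THOC2. The log2 fold change was -0.24 with a technical SD of 0.05, or 1.18-fold lower, and 8.29% of probes of like signal were lower.

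FLNA encodes filamin A, which crosslinks actin filaments into networks, and it differed from VCL in direction. The first probe, at chrX:153577264-153577323, gave 20380 with NC and 19595 with si-THOC2, for a log2 fold change of 0.25 (technical SD 0.04). The second, at chrX:153589844-153589903, gave 155 and 166, a log2 fold change of 0.41 (technical SD 0.10). The last, at chrX:153601752-153601811, was not well above background on either array and gave no fold. The mean of the first 2 was 0.33 (technical SD 0.05), or 1.26-fold higher. Of probes of like signal, 13.5% were higher than the first and 6.19% higher than the second.

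**Figure D2:**
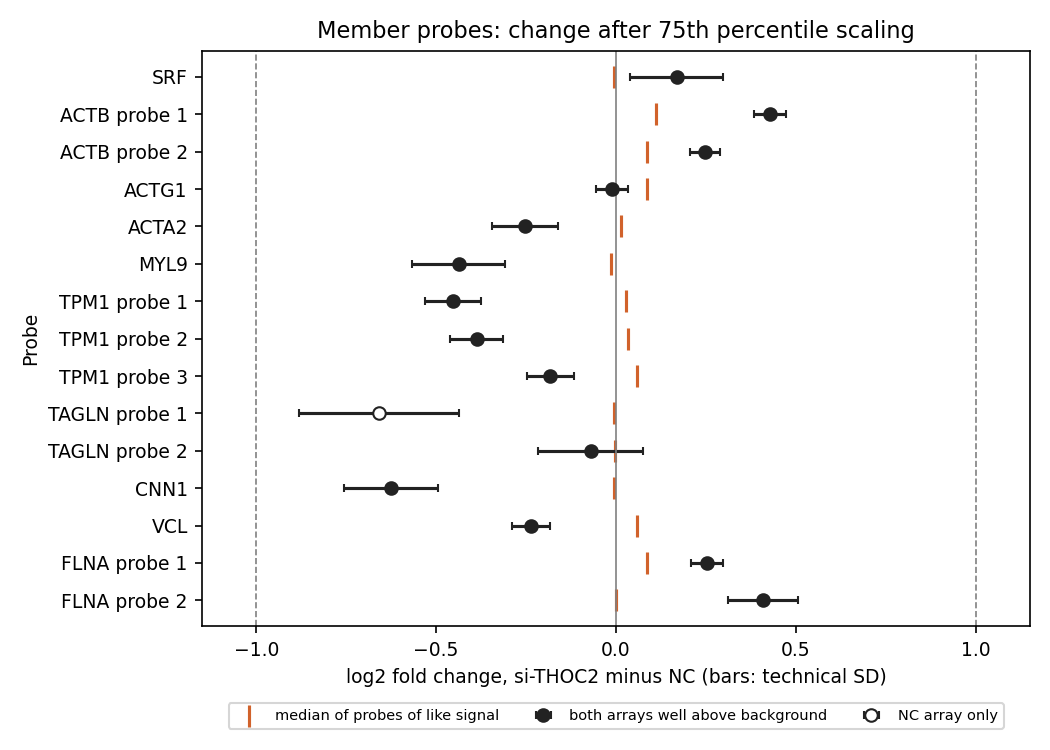
Log2 fold change of the 15 compared member probes, si-THOC2 minus NC, with bars of 1 technical SD and a mark for the median of 1001 probes of like signal. Dashed lines mark 2-fold. All probes of CNN1, TAGLN, MYL9, TPM1, ACTA2 and VCL lay below 0, the SRF, ACTB and FLNA probes lay above with this scaling, and the open point is the first TAGLN probe, which was measured well above background with NC only.

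By role, the 4 contractile genes MYL9, TPM1, TAGLN and CNN1 had a median log2 fold change of -0.40 and ran from -0.63 to -0.34. The 3 actins ran from -0.25 to 0.34, and the adhesion and crosslinking genes had -0.24 for VCL and 0.33 for FLNA. Among members with a promoter entry, SRF, ACTG1 and FLNA had a CArG box in the window searched. ACTA2, CNN1, TPM1 and VCL had none there and had lower values than these. ACTB, TAGLN and MYL9 could not be searched, and a link between box and direction was not tested. Brightness moved with direction in part of the members. The probes of ACTB and ACTG1 and the first of FLNA had signals of 14775 or more on both arrays, while those of the contractile genes reached at most 708, but SRF and the second FLNA probe were dim and above 0. The lowess curve through all compared probes rose from -0.01 at a mean log2 signal of 6 to 0.12 at 16. At the signals of the TAGLN probes the curve lay a little below 0, and subtracting it moved TAGLN from -0.36 to -0.32. With that curve subtracted, all 10 members stayed on the same side of 0. All but ACTG1 lay further from 0 than the curve did, so it could not have changed their side.

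**Figure D3:**
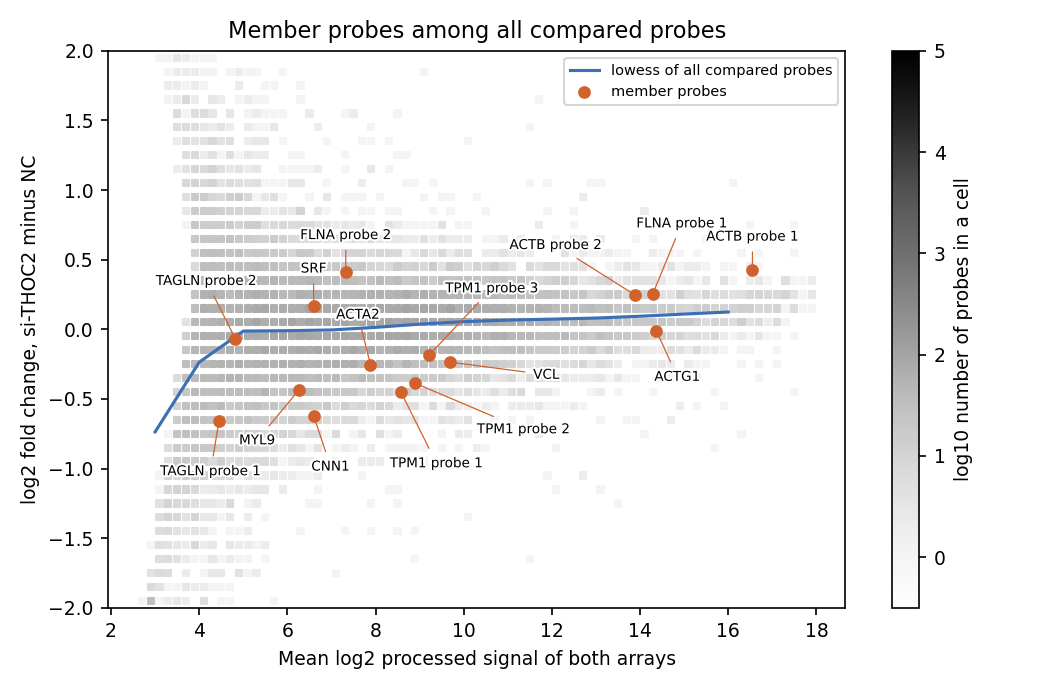
Log2 fold change (si-THOC2 minus NC) against the mean log2 processed signal of both arrays, with compared probes in grey by number per cell, their lowess curve in blue and the 15 compared member probes in orange. Probes past 2 in either direction are not drawn. CNN1, MYL9, the first TAGLN probe and the TPM1 probes sit below the curve at low to middle signal, and 2 ACTB probes and 2 FLNA probes sit above it.

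Because ACTB served as the RT-qPCR reference, its value was set beside 12 other genes in common use as references. ACTB had the highest log2 fold change of these 13 genes, at 0.34. The others had a median of 0.08 and ran from -0.31 for TBP, a general transcription factor, to 0.20 for TFRC, the transferrin receptor. GAPDH, the glycolytic enzyme used most often besides ACTB, had signals of 85187 with NC and 72371 with si-THOC2, which gives a log2 fold change of 0.07. HPRT1 had 0.11, PGK1 0.11, GUSB 0.08, SDHA 0.17 and RPL13A 0.14. B2M had -0.03, RPLP0 -0.03, PPIA -0.05 and YWHAZ -0.26. ACTB was also the highest of the 13 after quantile normalization (0.21, with 0.14 for the next), after the lowess curve was subtracted (0.22, with 0.13) and after normexp background correction (0.22, with 0.08).

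Scaling both arrays on ACTB instead would move every log2 fold change down by 0.34. On that scale the members had a median of -0.58 and all genes a median of -0.31, FLNA moved to -0.01 and SRF to -0.17, and both thus changed sign. The 7 members below 0 could only move further down, with CNN1 at -0.96, MYL9 at -0.77, TAGLN at -0.70 and TPM1 at -0.68. Of the probes past 2-fold, 74.8% were then lower, against 53.2% with the 75th percentile, and that share was 42.6% with the lowess curve subtracted and 29.5% after normexp. THOC2 read against ACTB was -1.36. Which of these scales is closer to the amount of RNA per cell was not tested.

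**Figure D4:**
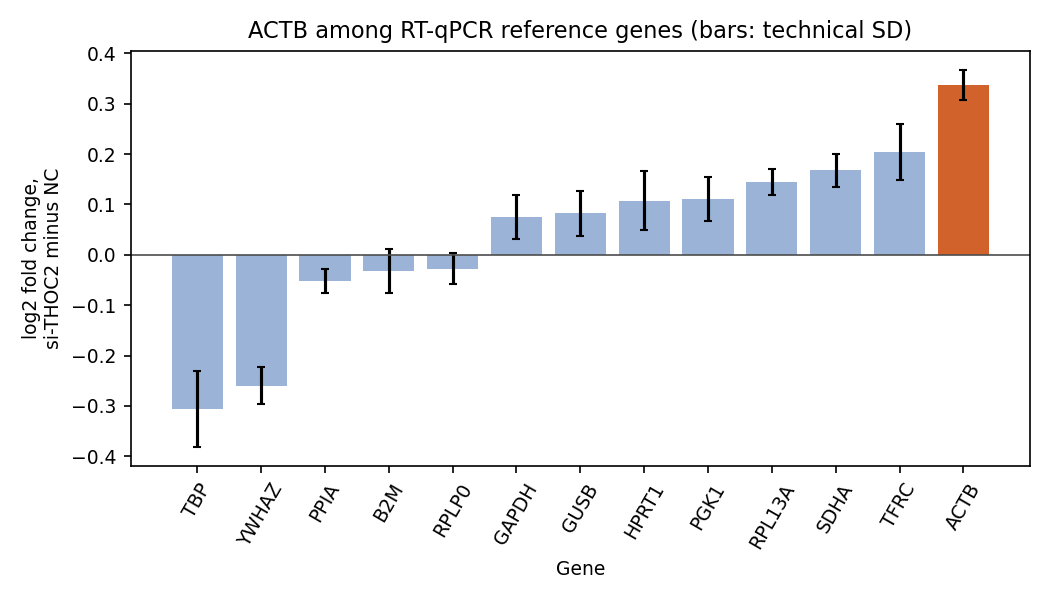
Log2 fold change (si-THOC2 minus NC) of ACTB and the 12 other genes in common use as RT-qPCR references, as bars from 0 with error bars of 1 technical SD. ACTB is the highest at 0.34 and TBP the lowest at -0.31.

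The factors that work with SRF lay mostly above 0. Of 6 SRF cofactors compared, 1 was below 0 and 5 above, with a median of 0.23 that flips to -0.11 on the ACTB scale. MRTFA, whose signals were 227 with NC and 198 with si-THOC2, had a log2 fold change of 0.11, and MRTFB, with 164 and 129, had -0.04. ELK4 had 0.03 and ELK3 0.34. ELK1, an ERK-responsive partner of SRF, had a mean log2 fold change of 0.84 over 2 probes, from 64.6 to 118 at the brighter (log2 fold change 1.18, technical SD 0.13) and from 22.3 to 25.3 at the dimmer (0.49, technical SD 0.18). MYOCD, the muscle-specific coactivator, was seen by 1 of 2 probes and with si-THOC2 only, at 2.95 and 30.3, which is at least 2.56-fold higher and rests on a single spot.

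Among 30 other cytoskeletal SRF targets, 28 were compared, with 10 below 0 and 18 above and a median of 0.11. With quantile normalization 13 were below 0 and 15 above and the median was 0.06, and after normexp it was 0.05. On the ACTB scale this median was -0.23, so its direction depends on the scaling. The lowest was CALD1, caldesmon, a partner of tropomyosin on actin filaments, with signals of 615 and 327 and a log2 fold change of -0.60 (technical SD 0.07), or 1.52-fold lower. MYLK, the kinase that phosphorylates the light chain encoded by MYL9, was next among genes measured on both arrays at -0.40, with signals of 162 and 112 at its brighter probe and 72.5 and 39.1 at the other. The highest was TPM4, a tropomyosin of non-muscle cells, with 2719 and 3279 at one probe and 5795 and 7376 at the other. Its log2 fold change of 0.62, or 1.54-fold higher, was opposite to that of TPM1 at -0.34. THBS1, a matrix protein, had 0.39. CALD1 was the only gene of the 28 lower by 1.5-fold and TPM4 the only gene higher, and none reached 2-fold. ACTC1 and ANKRD1 were not well above background on either array.

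Relatives of the members were named after their values were seen, and lay on either side of 0. ACTA1, the skeletal muscle alpha-actin, had -0.57 with no probe well above background on both arrays, ACTG2 had -0.08 and TAGLN2 -0.06. CNN2, the calponin of non-muscle cells, had signals of 857 on both arrays and a log2 fold change of 0.31 that comes from the scaling alone, against -0.63 for CNN1. TPM2 had probes at -0.14 and 0.26. The 6 compared probes of TPM3 averaged -0.13 but disagreed, from -0.70 to 0.23, with 0.22 at the brightest.

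**Figure D5:**
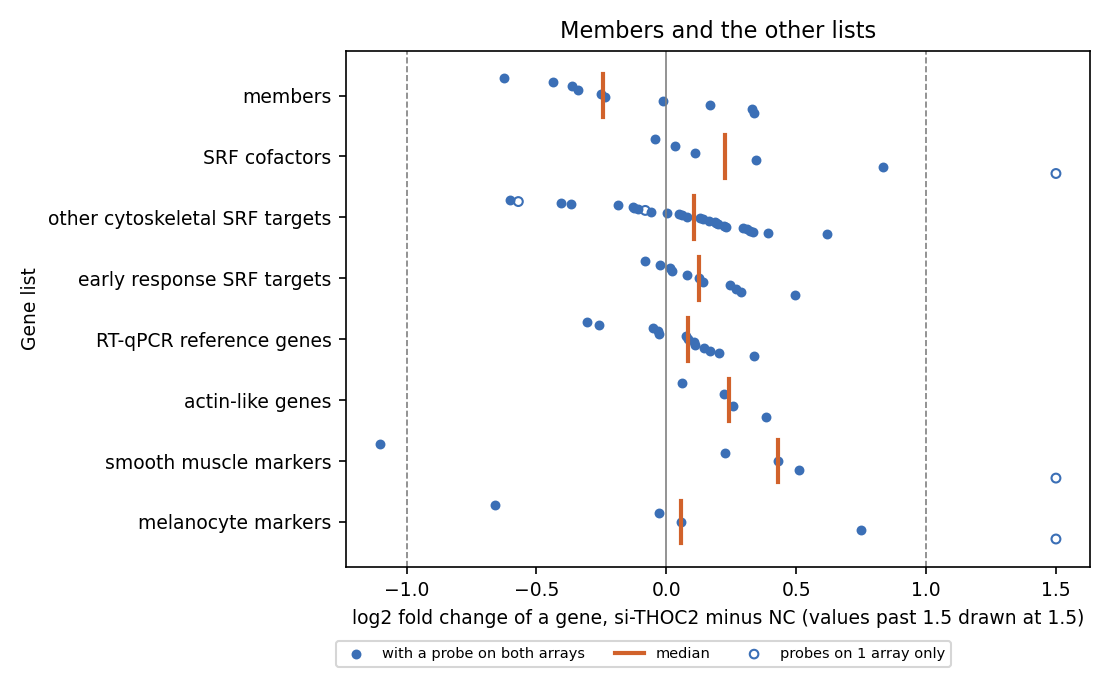
Log2 fold change (si-THOC2 minus NC) of each compared gene of the members and the 7 other lists, with the median of each list as a vertical bar and dashed lines at 2-fold. Values past 1.5 are drawn at 1.5, and open points are genes for which no probe was detected on both arrays. The members have the lowest median, -0.24, and the medians of the other lists lie between 0.06 and 0.43. Members and lists were chosen with earlier results of these data known.

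The early response targets of SRF stood mostly above 0 by small amounts. Of 11 compared, 2 were below 0 and 9 above, with a median of 0.13 (-0.21 on the ACTB scale). EGR2 had -0.08 and FOS -0.03 at the low end, EGR4 0.29 and DUSP5, an ERK phosphatase with signals of 1497 and 1702, 0.49 at the high end. None reached 1.5-fold.

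Genes whose transcripts resemble the actins were checked, since their probes could read ACTB. Of 6 actin-like genes 4 were on the array under their symbols, and all 4 were above 0, with ACTBL2 at 0.38, POTEKP at 0.26, POTEF at 0.22 and POTEI at 0.06. The 2 POTEI probes had 0.13 and -0.01, and after normexp 1 of the 4 genes lay below 0. These lay on the side of ACTB, and apart from ACTBL2 they fell below 0 on the ACTB scale. How much of their signal is ACTB RNA was not tested.

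Markers of smooth muscle, the cell type in which ACTA2, TAGLN, CNN1 and MYL9 are most abundant, were not all detected. MYH11, its defining myosin, and SYNPO2 were not well above background on either array, and 5 of 7 markers were compared, with a median of 0.43. LMOD1, a nucleator of actin filaments, was lower, with signals of 48.2 and 18.1 and a log2 fold change of -1.10 (technical SD 0.15), or 2.15-fold lower. Its other probe was not well above background on either array, and 18.1 lay near the detection limit of 15.9. Few repeated probes were this dim, so the technical SD of LMOD1 is rough and may be too small. Of probes of like signal, 10.1% were lower by 1.5-fold and 1.80% were lower than LMOD1. KCNMB1 had 0.23, and MYOCD is given above. SMTN had 0.43 with signals of 188 and 205 at its compared probe, and DES had 0.51 with signals of 193 and 221. Of the melanocyte markers, 5 of 8 were compared and their median was 0.06. S100B was lower, with 199 and 102 and a log2 fold change of -0.66, SOX10 had 0.06, MITF -0.03 and DCT 0.75 at signals of 18.02 and 24.45. MLANA was measured by 1 of 2 probes, on a single spot and with si-THOC2 only, at 2.94 and 18.7. With the NC side set at its detection limit it was at least 1.58-fold higher. That bound does not take in the technical SD of 0.34.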

How the data were processed

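RNA of 1 NC and 1 si-THOC2 culture was hybridized to 1-colour arrays. The authors deposited the scanner output, whose processed signal is an intensity after background subtraction, made with Agilent Feature Extraction 10.7.1.1 per the submitters' processing notes. They also deposited normalized log2 values, whose sorted values were nearly equal on both arrays, as quantile normalization leaves them. A deposited comparison table (fold changes, a signed fold and direction) was not used. Control spots and outlier spots (147 on NC, 168 on si-THOC2) were left out, and repeated spots were averaged as log2 values. A probe was compared if, on at least 1 array, the software called 50% or more of its spots well above background, and a gene's value averages its compared probes. The technical SD of probes on 1 spot is the median of the 25 nearest of 300 repeated probes. Only 5 repeated probes had a mean log2 signal of 4 to 6, with a median SD of 0.23, against 36 at 6 to 8, with 0.10. The technical SDs of LMOD1, the TAGLN probes and the dimmer ELK1 probe therefore draw on probes of other brightness and may be too small. No p-value was computed, and the number of arrays limits the precision. Gene names and positions (hg19) are those of the deposited annotation, with older symbols matched through RefSeq, and exons and UTRs were not analysed here. The members and lists were chosen with earlier results of these data known. A further list and 2 further reference genes are not reported here, and ranks among reference genes are over those reported. The text names all members, THOC2, the 13 reference genes reported, and in every other list the genes at 2-fold or more and the 2 lowest and 2 highest measured on both arrays. Further names were chosen after their values were seen. Alternatives were quantile, median and ACTB scaling, lowess centring (span 0.3), normexp (offset 50), stricter and no detection filters, dim signals at their detection limit, the deposited normalized values, the brightest probe of a gene, folds of 1.5 and 3, and centring by block of spots. Scripts were tested on simulated data. Python 3.11.15 (numpy 2.4.6, pandas 2.3.3, scipy 1.17.1, statsmodels 0.14.6, matplotlib 3.10.9) and R 4.3.3 with limma 3.58.1 were used.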

Additional observations from a re-analysis of the deposited data

How the results depend on the processing

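No paired analysis was possible because each condition had 1 array. ACTG1, ACTA2, TAGLN, CNN1, MYL9, TPM1 and VCL lay below 0 under all 11 alternatives, but scaling on ACTB could only lower them, and the detection filters, the limit on dim signals and the brightest probe could not change genes with 1 probe. Quantile normalization, lowess centring, normexp and centring by block of spots, which was chosen after seeing the data, were not bound to keep their side of 0. For the dimmer members all but normexp moved little, however. CNN1 went from -0.625 to -0.622 with quantile normalization, -0.617 with lowess centring and -0.641 with block centring. MYL9 went from -0.437 to -0.429, -0.427 and -0.446 in the same order. Such moves were too small to change a side, so these settings were weak checks for such genes. The deposited normalized values nearly repeat quantile normalization, with CNN1 at -0.622 in both, and are not a separate check. Median scaling moved the members' median only from -0.244 to -0.246, too little to change a side. With scaling on ACTB the members' median was -0.58, against -0.24, that of the other cytoskeletal SRF targets was -0.23, against 0.11, and the mean of the THOC2 probes was -1.36, against -1.03. FLNA then had -0.0066 and SRF -0.17, below 0, by the construction of that scale. Restriction to probes detected on both arrays gave a members' median of -0.15 and the brightest probe of each gene gave -0.13, and TAGLN then rested on its second probe alone, at -0.07. The other cytoskeletal SRF targets had a median of 0.17 with no detection filter. THOC2 had -0.51 after normexp and -1.42 at its brightest probe. The number of members past the fold was 1 at 1.5-fold, against 0 at 2-fold. The normexp setting adds an offset of 50 to every signal, which by construction draws the folds of dim probes toward 0. It left TAGLN at -0.06, MYL9 at -0.23 and CNN1 at -0.41, so no member was past 1.5-fold. How much of each move comes from the offset was not tested. Over all probes, the numbers past 2-fold were 844 lower and 743 higher, against 33 and 79 after normexp, 81 and 184 with probes on both arrays only, 225 and 476 with dim signals set to the detection limit, 1929 and 3127 without the detection filter, 1603 and 539 on the ACTB scale and 634 and 855 after lowess centring. Low signals limit TAGLN most.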
